A study of Mus musculus with 4 samples.

Results

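The genes described here were the CCN family and the core of the YAP pathway, 10 genes chosen by symbol in the deposited expression table. The CCN members were Cyr61 (Ccn1), Ctgf (Ccn2), Nov (Ccn3), Wisp1 (Ccn4) and Wisp2 (Ccn5), and the YAP pathway members were Yap1, Wwtr1, Tead1, Ankrd1 and Amotl2. All 10 were found among the 24532 genes of the table, all 10 were above 0 in at least 1 library, and 8 reached 1 FPKM in every library. FPKM scales fragment numbers by transcript length and library depth, so levels of different genes can be compared per length. Wisp3 (Ccn6), the remaining CCN gene, was no member and is given beside them.

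RNA sequencing was performed on articular cartilage of wild-type C57BL/6 mice, from sham and injured joints of young and adult animals. Young mice were 3 weeks old. Adult mice were 10 weeks old in the study's methods, whereas the labels give 12 weeks in 1 place and 14 weeks in another. Tissue was taken 3 days after surgery, except that the label of the adult sham library spans days 3 to 14. The methods describe a full-thickness injury of the patellar groove for this experiment, whereas the labels name destabilization of the medial meniscus. Each library was a pool of cartilage from 10 injured or 5 uninjured mice, and each group was 1 library. There is thus no replicate spread, no p-value and no standard deviation, and each difference below compares single libraries, not populations. No group carried a transgene or a deletion. The study's text names RNA from tissue other than cartilage as a limit of the dissection.

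CCN proteins are secreted, cysteine-rich matricellular proteins that bind integrins, proteoglycans and growth factors and adjust adhesion, matrix synthesis and vessel growth. YAP (Yap1) and TAZ (Wwtr1) are transcriptional coactivators that enter the nucleus when the Hippo kinases do not phosphorylate them, and they bind DNA through TEAD factors. Ctgf, Cyr61, Ankrd1 and Amotl2 are widely used YAP and TAZ target genes, and chondrocytes produce CTGF abundantly. Because YAP and TAZ are controlled mainly by phosphorylation and location, their RNA levels do not measure their activity.

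The TEAD factors recognise the letters GGAATG, or CATTCC on the other strand, and the promoters of the targets show where these letters lie. Promoter windows of RefSeq (GRCm38.p6, 250 bases before to 50 after a transcription start) were matched for 5 of the 10 members, Cyr61, Yap1, Wwtr1, Ankrd1 and Amotl2. All 5 genes had the motif, searched on both strands, in each of their 6 windows, of which the 2 of Wwtr1 overlap and hold the same site. Among windows of all genes, 4817 of 32851 held it (14.7%). The 250 bases before the Cyr61 start are shown whole because this target had one of the highest levels, at chr3:145649986-145650235 on the minus strand, printed 5′ to 3′ with the motif in capitals.
Cyr61 upstream: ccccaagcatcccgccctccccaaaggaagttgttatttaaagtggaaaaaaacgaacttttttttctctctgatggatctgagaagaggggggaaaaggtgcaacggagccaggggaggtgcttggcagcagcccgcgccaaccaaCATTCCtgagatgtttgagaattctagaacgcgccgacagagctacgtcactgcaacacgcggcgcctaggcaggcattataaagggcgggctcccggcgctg
For the other members, 30 bases around each motif are shown, so that the sites of the target listed at 0 in the sham libraries (Ankrd1) can be read beside those of genes expressed in every library. The Ankrd1 window held 2 sites, which began 210 and 123 bases before the start, at chr19:36120037-36120066 and chr19:36119950-36119979 on the minus strand. The Amotl2 site began 65 bases before the start of its window, at chr9:102717727-102717756 on the plus strand. This start is an internal one, since the gene spans 102717091 to 102733418, so the site lies inside the gene. The sites of the coactivator genes lay on the minus strand at chr9:8004720-8004749 (Yap1) and chr3:57576029-57576058 (Wwtr1).
Ankrd1 first site: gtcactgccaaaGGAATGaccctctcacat
Ankrd1 second site: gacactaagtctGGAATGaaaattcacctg
Amotl2 site: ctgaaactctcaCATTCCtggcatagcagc
Yap1 site: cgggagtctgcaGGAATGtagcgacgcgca
Wwtr1 site: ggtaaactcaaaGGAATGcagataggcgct
A match is a description of the sequence and not evidence that TEAD was bound.

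The libraries were of similar depth, and the tissue label held with exceptions. If the smallest step of the FPKM values is 1 fragment, the libraries held between 26100000 and 31100000 fragments. Of 13 chondrocyte markers none was at 0, but Matn1 and Matn3 were 2.65 and 2.30 FPKM in adult sham cartilage against 1661 and 392 in young sham cartilage. Markers of other cells were present in every library, with none of the listed markers at 0. At the young age the 13 chondrocyte markers summed to 19780 (sham) and 17447 FPKM (injured), beside 9674 and 18440 for 7 erythroid markers. The erythroid sum was thus the larger after injury at that age. At the adult age the chondrocyte sums were 12381 and 11509 FPKM, beside 6955 and 3031 for erythroid markers. Those of 10 osteoblast markers were 8348 and 10555 FPKM there, against 1030 and 3270 at the young age. Among 10891 genes that reached 1 FPKM in each library, injury shifted the median log2 ratio by -0.04 at the young and by 0.23 at the adult age. The adult libraries stood at a median of -0.30 to the young ones for sham and -0.07 for injured cartilage. Ratios below are log2 of FPKM + 1 as deposited, and "relative to the median" subtracts these shifts. In bulk cartilage, fewer cells of a type and less RNA per cell cannot be told apart.

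Ctgf and Cyr61 dominated the family in every library. Ctgf, the growth factor that drives matrix production by fibroblasts and chondrocytes (chromosome 10, 24595442 to 24598683), measured 1156 FPKM in the young sham library and 688 FPKM in its injured counterpart, and 3904 and 1619 FPKM in the adult pair. In this order, which is kept wherever 4 values follow each other, it ranked 59, 128, 12 and 28 among all genes. Its level was highest in adult sham cartilage, and each injured library lay below the sham library of its age. Cyr61, an adhesive CCN protein that binds integrins (chromosome 3, 145646971 to 145649985), measured 257, 166, 434 and 161 FPKM. The 2 injured libraries were nearly level for Cyr61, and the sham libraries were both above them.

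The other CCN genes were expressed at far lower levels. Wisp2, a CCN gene first found as induced by Wnt1 (chromosome 2, 163820752 to 163833146), measured 3.89 FPKM in the young sham and 27.01 FPKM in the young injured library, and 5.63 and 45.4 FPKM in the adult pair. Both injured libraries were above both sham libraries, and Wisp2 moved from rank 9021 to 2319 in young and from 6605 to 1319 in adult cartilage. Wisp1, a second Wnt-induced family member that is active in bone formation (chromosome 15, 66891369 to 66923201), measured 9.27, 8.55, 4.46 and 7.82 FPKM. The adult sham library alone was low for Wisp1, with the other 3 between 7.82 and 9.27. Nov, a CCN protein often opposed to Ctgf in its effects (chromosome 15, 54745910 to 54753762), measured 2.17, 1.75, 1.63 and 1.96 FPKM, the narrowest spread of the family. Wisp3, for comparison, measured 18.8, 19.0, 17.8 and 12.3 FPKM and overlaps Tube1, whose level was between 0.892 and 1.63 FPKM.

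The coactivators and their partners were expressed at moderate levels. Yap1 (chromosome 9, 7931999 to 8004638) measured 13.2, 10.6, 14.8 and 14.7 FPKM. Wwtr1, which encodes TAZ (chromosome 3, 57455644 to 57575910), measured 19.9, 12.5, 16.2 and 10.8 FPKM. Wwtr1 was below its sham level in both injured libraries, whereas Yap1 was so in the young pair, with the adult pair nearly equal. Tead1, a DNA-binding partner of both (chromosome 7, 112679356 to 112906784), measured 2.66, 2.86, 0.855 and 2.03 FPKM, with the adult sham library lowest. Amotl2, an angiomotin that binds YAP and is itself a YAP target (chromosome 9, 102717091 to 102733418), measured 15.8, 11.8, 17.1 and 17.4 FPKM. The young injured library was the lowest of the 4 for Amotl2. Ankrd1, an ankyrin repeat protein of striated muscle and a YAP target in many cultured cells (chromosome 19, 36111965 to 36119844), measured 0.355 FPKM in the young and 0.170 FPKM in the adult injured library, and both sham libraries listed it at 0. If 1 step is 1 fragment, these are about 19 and 9 fragments, and no ratio is given against a library listed at 0.

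**Figure D1:**
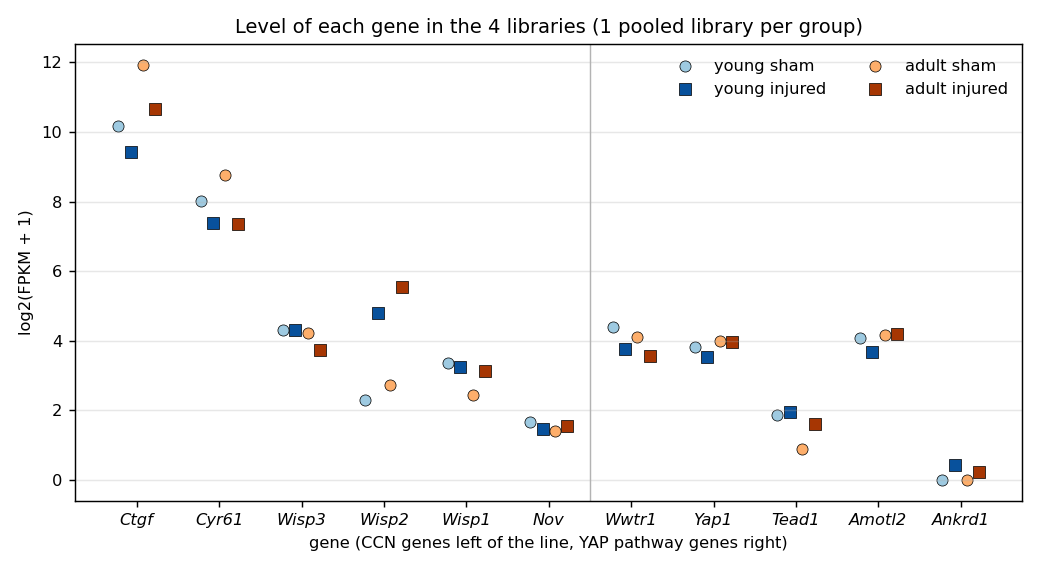
The level of each gene, as log2(FPKM + 1) on the vertical axis, with 1 point for each of the 4 libraries (sham and injured, young and adult), with CCN genes left of the line and YAP pathway genes right of it. Ctgf and Cyr61 lie far above the other genes, Wisp2 is high in both injured libraries, and Ankrd1 lies at or near 0.

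The question of the first comparison was how the genes changed 3 days after injury in young cartilage. Wisp2 rose 5.72-fold on the FPKM + 1 scale, a log2 ratio of 2.52, or 2.56 relative to the median. Wisp2 was the 1 member of 10 that rose by 2-fold or more and 0 members fell by that much, while 4.57% of the 18181 genes tested rose and 1.27% fell. Ctgf was 1.68-fold lower (log2 ratio -0.75, -0.71 relative to the median) and Cyr61 was 1.55-fold lower (-0.63, -0.59 relative to the median), both inside the 2-fold threshold. Wwtr1 had the same log2 ratio as Cyr61, -0.63, followed by Amotl2 at -0.39, Yap1 at -0.29, Nov at -0.21 and Wisp1 at -0.10. Tead1 was nearly equal between the young libraries, at 0.08. Among the 10 members 7 ratios were below 0, and the median of all 10, with Ankrd1 entered as log2 of FPKM + 1, was -0.25, beside 0 over all genes tested.

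The same comparison in adult cartilage gave 1 member that rose and 2 that fell, against 6.90% of all genes higher and 1.46% lower by 2-fold or more. Wisp2 rose 7.00-fold, a log2 ratio of 2.81, or 2.58 relative to the median. Cyr61 fell 2.68-fold (log2 ratio -1.42, -1.65 relative to the median) and Ctgf fell 2.41-fold (-1.27, -1.50 relative to the median). Quantile normalization brought Ctgf to -0.96, just inside the threshold, while Cyr61 stayed between -1.70 and -1.33 under the scalings, pseudocounts and filter tried. The log2 ratio was 0.71 for Tead1, 0.69 for Wisp1, 0.17 for Nov, 0.02 for Amotl2, -0.01 for Yap1 and -0.55 for Wwtr1. After median-of-ratios scaling, which removes the shift of the median, Nov, Amotl2 and Yap1 were at -0.01, -0.24 and -0.27, and Yap1 was at 0.08 after TPM rescaling, so the signs of these 3 genes depended on the scaling. The median of the 10 members was 0.10 as deposited, beside 0.14 over all genes tested, and -0.12 after that scaling, beside 0.01 over all genes.

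**Figure D2:**
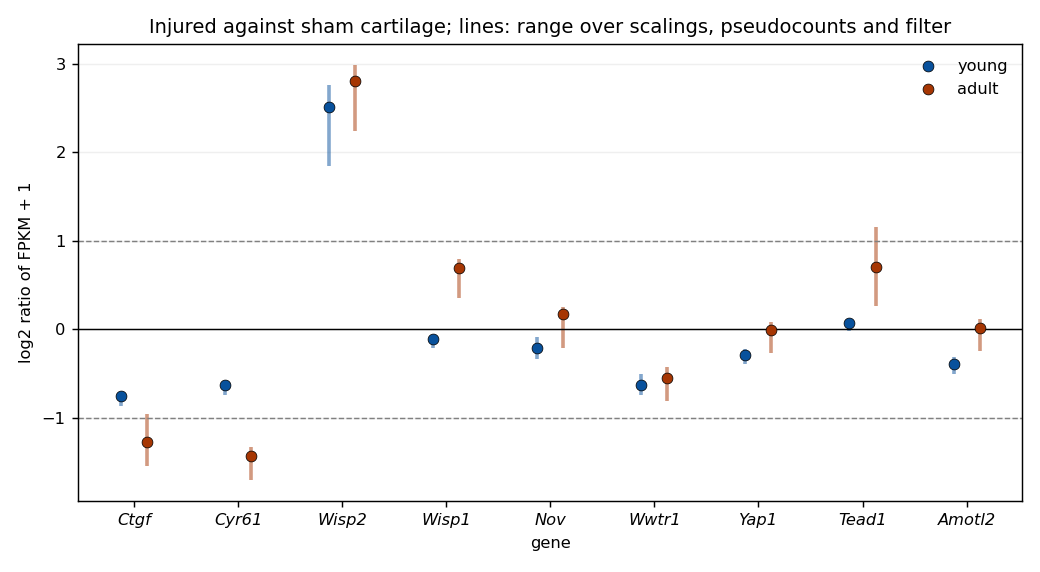
The log2 ratio of FPKM + 1 of injured against sham cartilage for 9 members, with points for the values as deposited in young and adult mice and lines for the range over other scalings, pseudocounts and the filter on low values. Wisp2 lies above the upper dashed 2-fold line at both ages, while Cyr61 and Ctgf lie below the lower one in adult cartilage, with the line of Ctgf crossing it.

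The injury response of Cyr61 was larger in size in adult than in young cartilage by 0.80 on the log2 scale, and that of Ctgf by 0.52. As adult minus young ratios these differences were -1.09 and -0.82 after median-of-ratios scaling, -0.58 and -0.31 after TPM rescaling, and -0.87 and -0.12 after quantile normalization. The size of the Ctgf difference thus depended on the scaling. Wisp2 differed by 0.29 between the ages as deposited, by 0.49 after TPM rescaling, by 0.05 after median-of-ratios scaling and by less than 0.01 after quantile normalization. These differences rest on 1 library at each corner of the design and were not tested.

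Markers of other cells also changed after injury. Their counts past 2-fold stand beside those of all genes, 4.57% higher and 1.27% lower in young cartilage. In adult cartilage 6.90% of all genes were higher and 1.46% lower. Beside Ctgf and Cyr61, the summed level of 7 markers of the superficial zone and synovial lining was 3497, 1482, 7636 and 4354 FPKM. After injury 3 of these 7 markers fell by 2-fold or more in young cartilage, Prg4 (log2 ratio -2.28), Abi3bp (-1.54) and Thbs4 (-1.34). In adult cartilage 3 fell as well, Thbs4 (-2.91), Htra4 (-1.37) and Clu (-1.09), with Prg4 at -0.42. Has1 rose in adult cartilage (log2 ratio 1.95), and Cd55 was at 0.59 in young and 0.65 in adult cartilage. The summed level of 15 skeletal muscle markers was 1100, 889, 2105 and 593 FPKM. After injury 2 of the 15 fell in young cartilage, where their median log2 ratio was -0.05, and 10 fell in adult cartilage. Of the 13 chondrocyte markers 1 was lower in young and 5 were higher in adult cartilage, where their median log2 ratio was 0.68, beside 0.14 over all genes. After median-of-ratios scaling 0 were lower in young and 3 were higher in adult cartilage, with an adult median of 0.41. Of 7 erythroid markers 1 was higher in young and 3 were lower in adult cartilage. Beside Wisp2, all 13 macrophage markers rose at both ages, with sums of 205, 2214, 342 and 1875 FPKM. The 12 fibroblast markers summed to 2882, 6650, 2659 and 9117 FPKM, with 4 of them higher after injury in young cartilage and, in adult cartilage, 5 higher and 2 lower (Dpt at -1.08 and Clec3b at -1.07). Endothelial markers summed to 24.5, 112, 27.5 and 94.9 FPKM, with 9 of 12 higher at both ages, and of 10 neutrophil markers 4 were higher in young and 1 in adult cartilage. Of 10 osteoblast markers 2 were higher at both ages, though 0 in adult cartilage after median-of-ratios scaling. Hypertrophic chondrocyte markers, some of which are also osteoblast markers, summed to 1260.5, 3846, 7492 and 12314 FPKM. Of these 7 markers 2 were higher at both ages and 1 was lower in adult cartilage. The part of these cells in the levels of Ctgf, Cyr61 and Wisp2 was not tested.

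Between the sham libraries, which asked how adult cartilage differs from young cartilage before injury, Ctgf was 3.38-fold higher in adult mice. This is a log2 ratio of 1.76, or 2.06 relative to the median. Ctgf was the 1 member higher by 2-fold or more and 0 members were lower by that much, while 2.66% of all genes were higher and 10.6% lower. Cyr61 had a log2 ratio of 0.75 as deposited, and median-of-ratios scaling brought it to 1.14, past the threshold. Tead1 at -0.98 and Wisp1 at -0.91 were close to 2-fold lower as deposited, and they lay at -0.68 and -0.61 relative to the median. Wisp2 was at 0.44, Yap1 at 0.15, Amotl2 at 0.11, Nov at -0.27 and Wwtr1 at -0.28. Between these libraries 3 of the 7 superficial zone markers, 9 of the 15 muscle markers and 7 of the 10 osteoblast markers were also higher in adult cartilage, as were 6 of the 13 macrophage markers. After median-of-ratios scaling these 4 counts were 5, 11, 7 and 7. Of 7 hypertrophic chondrocyte markers 3 were higher and 1 was lower as deposited, and of 7 erythroid markers 1 was higher and 5 were lower. Of the 13 chondrocyte markers 10 were lower and 1, Comp, was higher (1324 against 7203 FPKM, log2 ratio 2.44). Their part in the Ctgf level was not tested.

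Between the injured libraries Ctgf was 2.35-fold higher in adult mice, with a log2 ratio of 1.23, or 1.32 after median-of-ratios scaling. Cyr61 was nearly equal at -0.04, beside 0.75 in the sham libraries, a difference that was not tested. Ctgf was again the 1 member higher by 2-fold or more, against 1.80% of all genes, and 0 members were lower, against 3.09%. Wisp2 was at 0.73, Amotl2 at 0.52, Yap1 at 0.43, Nov at 0.11, Wisp1 at -0.11, Wwtr1 at -0.20 and Tead1 at -0.35. Between these libraries 4 of 7 superficial zone, 7 of 10 osteoblast and 4 of 7 hypertrophic chondrocyte markers were higher in adult cartilage, and 6 of 13 chondrocyte and 7 of 7 erythroid markers were lower. Their part in the Ctgf level was not tested here either. The sham and injured comparisons of the ages do not share libraries, but each shares its libraries with the injury comparisons.

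**Figure D3:**
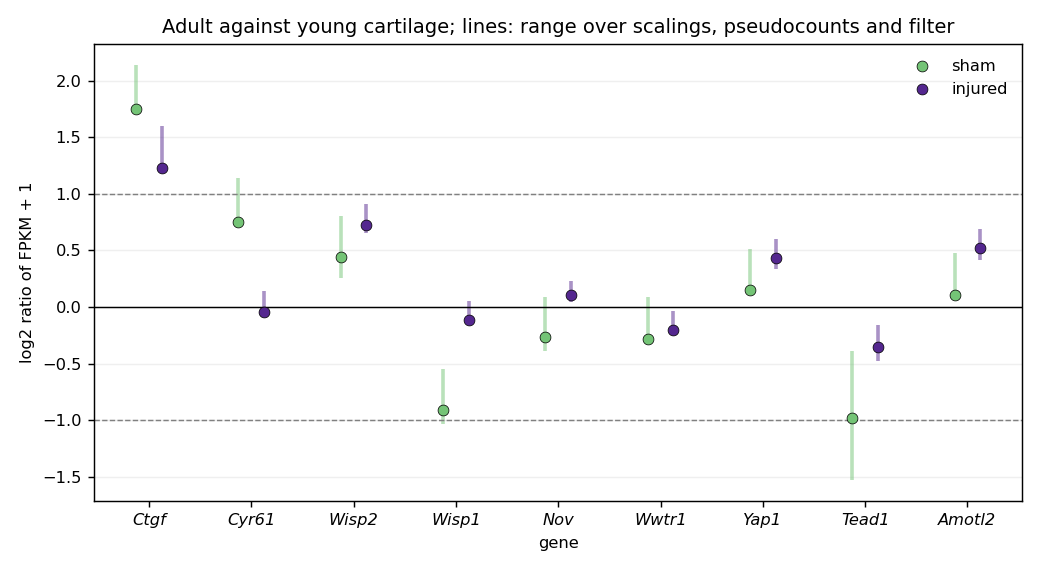
The log2 ratio of FPKM + 1 of adult against young cartilage for 9 members, with points for the sham and the injured libraries as deposited and lines for the range over other scalings, pseudocounts and the filter on low values. Ctgf lies above the upper dashed 2-fold line in both, and the sham lines of Cyr61, Wisp1 and Tead1 each cross a dashed line.

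Ratios between genes of 1 library do not change when that library is multiplied by a single factor, as in TPM or median-of-ratios scaling, though quantile normalization can change them. Ctgf was 4.49 and 4.15 times the FPKM of Cyr61 in the young sham and injured libraries, and 8.99 and 10.05 times in the adult ones. The ratio was higher in both adult libraries than in both young ones, and as deposited the libraries of one age lay close together. After quantile normalization the adult injury ratios of Ctgf and Cyr61 stood further apart, at -0.96 and -1.59. Ctgf and Cyr61 made up 79.9% and 17.8% of the summed FPKM of the 6 CCN genes in young sham, and 89.4% and 9.94% in adult sham cartilage. The share of Wisp2 was 0.269%, 2.97%, 0.129% and 2.46%. It was above 2% in the injured libraries alone. The summed level of the 6 CCN genes was 1447, 910.3, 4368 and 1848 FPKM.

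The balance of the coactivators also differed between libraries. The ratio of Yap1 to Wwtr1 was 0.662, 0.848, 0.912 and 1.37. Wwtr1 was therefore the higher of the pair in 3 libraries and Yap1 in the adult injured library. The summed level of Yap1 and Wwtr1 was 33.1, 23.2, 30.99 and 25.5 FPKM, lower in each injured library than in the sham library of its age. The summed level of Tead1 to Tead4 was 8.39, 11.01, 4.91 and 9.28 FPKM, higher in each injured library. Tead1 made up 31.7%, 25.98%, 17.4% and 21.9% of that sum.

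**Figure D4:**
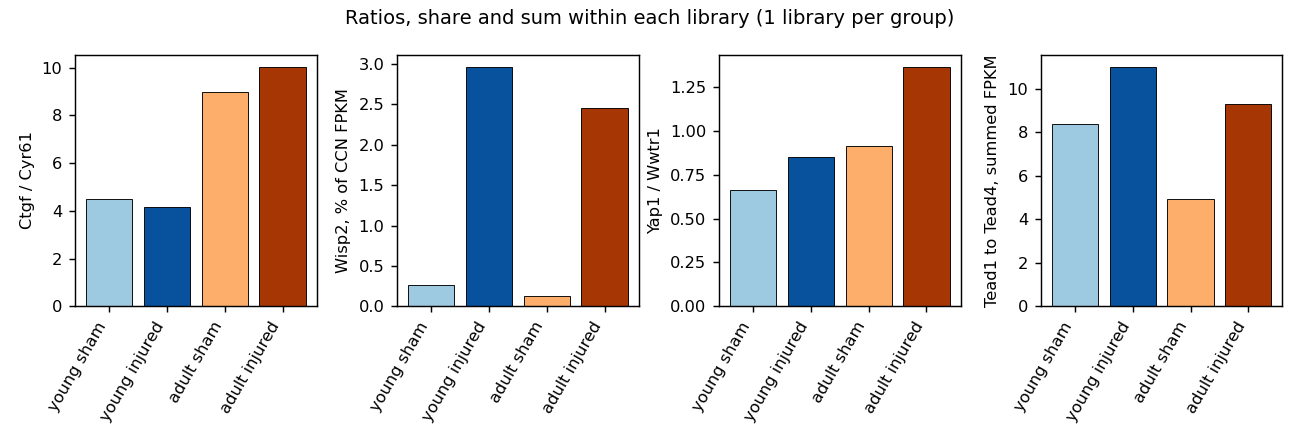
Values formed within each library, shown as 1 bar per library in 4 panels that start at 0: the ratio of Ctgf to Cyr61, the percentage of Wisp2 in the summed CCN FPKM, the ratio of Yap1 to Wwtr1, and the summed FPKM of Tead1 to Tead4. The Ctgf to Cyr61 ratio is high in both adult libraries, and the Wisp2 share and the TEAD sum are higher in each injured library than in its sham library.

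The CCN genes also differ in the proteins they encode. The coding length, taken from the longest coding transcript of GENCODE vM21, was 1137 bases (379 residues) for Cyr61, 1044 (348) for Ctgf, 1062 (354) for Nov, 1101 (367) for Wisp1, 753 (251) for Wisp2 and 1062 (354) for Wisp3. Wisp2 had 4 coding exons where the others had 5, and its protein lacks the C-terminal cystine-knot module of the family. The members shared little sequence with other genes, at most 1.89% of the 31-base words of a transcript (Yap1). A long noncoding gene, Gm15270, overlaps Ctgf and a pseudogene, Gm16016, overlaps Wwtr1, and how reads were assigned to overlapping genes is not given in the sources used here.

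Upstream of the coactivators, 19 Hippo kinases and scaffolds were listed. After injury in young cartilage 1 of 19 rose by 2-fold or more, Rassf5 (log2 ratio 1.01), against 4.57% of all genes, and 0 fell. In adult cartilage, where 6.90% of all genes rose, 1 of 19 rose, Map4k4, a kinase that acts on LATS (10.02 to 28.0 FPKM, log2 ratio 1.39), and 0 fell. All 19 ratios were above 0 there, with a median of 0.46 as deposited, beside 0.14 over all genes, and 0.21 after median-of-ratios scaling, beside 0.01. Under that scaling Taok2 (-0.04), Mink1 (-0.14) and Rassf1 (-0.17) were below 0. Between the sham libraries, where 10.6% of all genes were lower in adult mice, 2 of 19 were lower, the kinase Lats1 (9.78 against 4.12 FPKM, log2 ratio -1.08) and its cofactor Mob1a (24.8 against 9.09 FPKM, log2 ratio -1.36). After median-of-ratios scaling the count was 0 of 19, and as deposited it was near the share of all genes. Between the injured libraries 0 of 19 passed in either direction.

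A list of 10 angiomotins and other regulators that act on YAP, LATS or TEAD holds Amotl2. After injury in young cartilage 0 of the 10 rose or fell, against 4.57% and 1.27% of all genes. In adult cartilage 1 of the 10 rose, against 6.90%, and 0 fell. This was Vgll4, which competes with YAP for TEAD and went from 19.1 to 43.8 FPKM (log2 ratio 1.16), and after median-of-ratios scaling it was at 0.89 and inside the threshold. Ajuba, which restrains LATS and so differs in role from the angiomotins, was the 1 of 10 lower in adult than in young sham cartilage, against 10.6% of all genes (1.25 against 4.21 FPKM, log2 ratio -1.21, and -0.96 after the scaling). Of 8 TEAD factors and partners 0 passed in young cartilage and 2 rose in adult cartilage, against 6.90%, which were again Vgll4 and Tead2, from 0.780 to 3.45 FPKM (log2 ratio 1.32), beside 1.46 and 3.29 FPKM in the young pair, a log2 ratio of 0.80. Of 6 atypical cadherins and regulators that signal to Hippo, 1 fell after injury in young cartilage, Fjx1, against 1.27% of all genes. Fat1 (-1.02), Fat4 (-1.46) and Fjx1 (-1.88) were the 3 of 6 lower in adult than in young sham cartilage, against 10.6% of all genes, of which Fat1 was at -0.68 after the scaling.

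Downstream, the members were read beside a consensus list of 22 YAP and TAZ target genes, which holds Ctgf, Cyr61, Ankrd1 and Amotl2. After injury in young cartilage 2 of the 22 rose and 2 fell, against 4.57% and 1.27% of all genes, with a median log2 ratio of -0.09, beside 0 over all genes tested. The genes that rose were Gadd45a, a stress-induced growth arrest gene (10.6 to 31.9 FPKM, log2 ratio 1.51), and Igfbp3, which binds insulin-like growth factors (1.96 to 13.7 FPKM, 2.32). Crim1, a transmembrane protein that binds BMPs (40.1 to 9.70 FPKM, -1.94), and Fjx1 (5.08 to 1.76 FPKM, -1.14) fell.

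In adult cartilage 4 of the 22 rose and 2 fell, against 6.90% and 1.46% of all genes, with a median of 0.35 as deposited, beside 0.14 over all genes tested. After median-of-ratios scaling it was 0.20, beside 0.01. The genes that rose were Gadd45a (6.81 to 74.9 FPKM, log2 ratio 3.28), Igfbp3 (1.01 to 6.87 FPKM, 1.97), Tgfb2 (1.61 to 5.15 FPKM, 1.24) and Nuak2 (0.346 to 2.08 FPKM, 1.19). The 2 that fell were the members Ctgf and Cyr61, and after median-of-ratios scaling Crim1 passed too, at -1.13 (-0.86 as deposited). Over the 18 targets that are no members the median was -0.07 in young and 0.62 in adult cartilage as deposited, and 0.38 in adult cartilage after that scaling. Ctgf and Cyr61 therefore lay below the median of the other targets at both ages, and the targets as listed did not move in a single direction.

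Between the sham libraries 1 target was higher in adult mice, Ctgf, and 2 were lower, Fjx1 (-1.88) and Tgfb2 (-1.17), against 2.66% and 10.6% of all genes. After median-of-ratios scaling Cyr61 was also higher (1.14) and Tgfb2 was at -0.89, inside the threshold. Between the injured libraries 3 were higher in adult mice, Ctgf, Gadd45a (1.21) and Ccdc80 (255 against 516 FPKM, 1.01), and 0 were lower, against 1.80% and 3.09% of all genes. After median-of-ratios scaling Nt5e passed too, at 1.03.

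**Figure D5:**
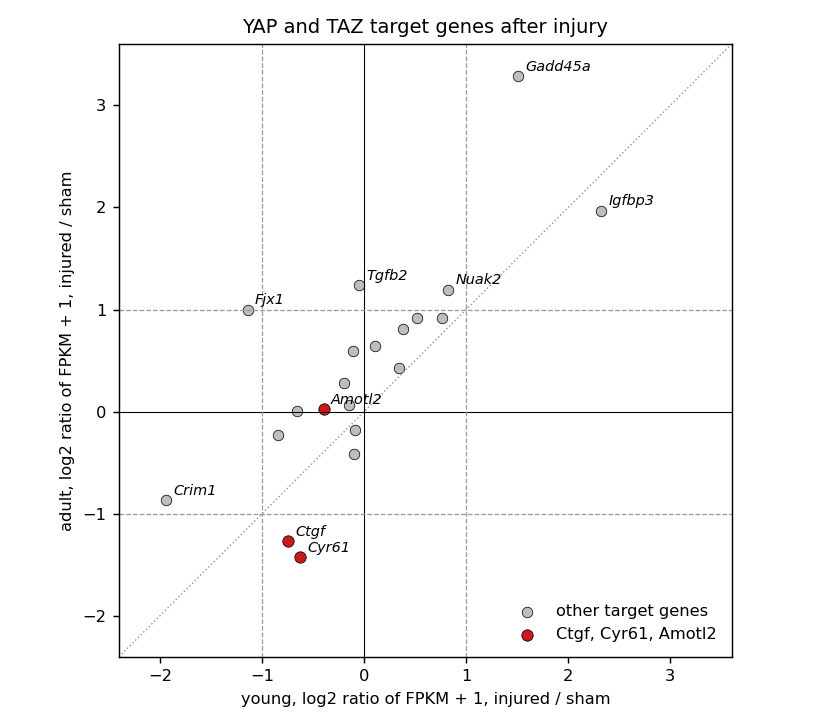
The log2 ratio of FPKM + 1 of injured against sham cartilage for target genes of YAP and TAZ, young on the horizontal and adult on the vertical axis, 1 point per gene, with dashed 2-fold lines and the dotted line of equal ratios; Ankrd1, listed at 0 in the sham libraries, is left out. Ctgf and Cyr61 lie in the lower left corner, while Gadd45a and Igfbp3 lie in the upper right.

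Of 12 CCN receptors, 11 were above 0. By 2-fold or more 2 of the 12 rose in young and 4 in adult cartilage, against 4.57% and 6.90% of all genes, and 0 fell at either age, where 1.27% and 1.46% of all genes fell. Itgam and Itgb2, the integrin chains of the leukocyte receptor to which Cyr61 and Ctgf bind, rose after injury in young (3.82 to 31.3 and 6.68 to 50.4 FPKM, both log2 ratios 2.74) and adult cartilage (2.43 and 2.28). Itgam is also 1 of the 13 macrophage markers above. Itgb3 (3.70 to 11.6 FPKM, log2 ratio 1.42) and Itga6 (3.04 to 8.04 FPKM, 1.16) rose in adult cartilage, with Itga6 at 0.95 and inside the threshold after median-of-ratios scaling. Itgb5, a partner of the alpha v integrin chain, measured 51.5, 50.02, 172 and 108 FPKM and was higher in adult cartilage in the sham (log2 ratio 1.72) and injured (1.10) libraries. The syndecan Sdc4 measured 170.4, 95.5, 269 and 191 FPKM, with log2 ratios of -0.83 and -0.49 for injury, inside the threshold. Between the ages Sdc4 passed after median-of-ratios scaling, at 1.04 in the sham and 1.08 in the injured libraries, as did Itga5 in the sham libraries, at 1.32.

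The genes nearest to each member in pattern were sought among 6389 genes that reached 10 FPKM in some library, by the Euclidean distance of log2(FPKM + 1) centred over the 4 libraries. The gene nearest to Ctgf was Ntn4, a netrin, at a distance of 0.03, with 16.8, 9.55, 59.98 and 24.3 FPKM. Ptgis (0.15) and P4htm (0.27) followed. The genes nearest to Cyr61 were Angptl2 (0.14), Camkk1 (0.20) and Bmp5 (0.24). The gene nearest to Wisp2 was Slpi, a secreted protease inhibitor, at 0.11, with 2.69, 20.01, 4.19 and 31.8 FPKM. Angptl4 (0.28) and Bcl3 (0.45) followed. The nearest gene of each other member was Tsc2 for Yap1 (0.01), Got1 for Amotl2 (0.05), Dazap1 for Tead1 (0.05), Smarca5 for Wisp1 (0.05), Fbxo9 for Nov (0.04) and Zfp862-ps for Wwtr1 (0.09). Among the members themselves the closest pair was Yap1 and Amotl2, at 0.08, followed by Wisp1 and Tead1 at 0.20. With 4 libraries such likeness is a description of these libraries.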

How the data were processed

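Gene expression was measured in 4 pooled cartilage libraries made with a stranded poly-A kit and sequenced in pairs. The authors deposited FPKM for 24532 genes on mm10. The submitters' processing notes name HISAT2 2.1.0, StringTie 1.3.4d, STAR and SAMtools with no role or order, so FPKM could depend on steps not given in the sources used here. Each column was matched to its library by name, and groups follow the labels. Log2 ratios of FPKM + 1 were calculated for 18181 genes above 0 in at least 1 library, and a 2-fold ratio counted as a change. The pseudocount understates changes of low genes. With 1 library per group no test was made. Fragment numbers rest on the smallest FPKM steps, so counting errors are not given.

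The 10 members and the gene lists were chosen with earlier results of these data known. The genes named are the members, list genes past 2-fold or with the highest level, and the genes nearest to each member, 3 for those past 2-fold and 1 for the others. Named after their values or positions were seen were Gm15270, Gm16016, Tube1, Wisp3, Sdc4, Itga5, Nt5e, Taok2, Mink1, Rassf1, Cd55, Fhl1, Tagln, Actb and Actg1. The alternatives were pseudocounts of 0.1 and 5 FPKM, a filter of 1 FPKM, thresholds of 1.5-fold and 3-fold, and rescaling by quantiles, by median of ratios or to equal sums (TPM). A comparison of CCN protein sequences was not run, and coding lengths are given in its place. Gene positions and promoters came from RefSeq tables of GRCm38.p6. The 2-fold call was tried on simulated data with 200 changed genes of higher level. The list counts, promoter search and nearest genes were not simulated. Calculations used Python 3.11.15, numpy 2.4.6, pandas 2.3.3 and matplotlib 3.10.9.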

Additional observations from a re-analysis of the deposited data

Results flagged for a closer look

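Some members and genes of the pathway lists had injury ratios of opposite sign at the 2 ages. How often this occurs over all genes was not counted, so it is not read as a trait of these lists. Given here are the 3 members and the 3 others that passed 2-fold at one age. None of these differences was tested, since each group was 1 library, and in adult cartilage the median of all genes was itself above 0. The adult minus young difference of the log2 injury ratio was 0.80 for Wisp1, 0.41 for Amotl2 and 0.38 for Nov. For Wisp1 the sign in adult cartilage was the same under each scaling tried, whereas for Amotl2 and Nov it turned negative after median-of-ratios scaling (-0.24 and -0.01). The difference was 2.14 for Fjx1, which was -1.14 in young and just under 2-fold in adult cartilage. It was 1.28 for Tgfb2 (-0.05 and 1.24) and 1.23 for Vgll4 (-0.08 and 1.16).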

How the results depend on the processing

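Across the alternatives the directions of Ctgf, Cyr61 and Wisp2 after injury were the same at both ages, and the log2 ratio ranges were 1.85 to 2.76 (young) and 2.25 to 2.99 (adult) for Wisp2. Of the recomputed member ratios, 215 kept their direction and side of the threshold, 13 near 0 changed sign, and 7 passed the threshold where the deposited value had not. Of the list medians, which had no threshold, 433 kept their sign and 23 changed it. Ctgf in adult injury was -0.96 after quantile normalization, inside the threshold, which left 1 member lower. The cause was not tested.

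With a pseudocount of 0.1 FPKM, 2 members were higher in young injury (Ankrd1 added, whose ratio against 0 depends on the pseudocount), 3 in adult injury (Tead1 and Ankrd1 added), and 2 were lower in adult sham (Wisp1 and Tead1). TPM rescaling left 1 lower in adult sham (Tead1), and median-of-ratios scaling gave 2 higher there (Cyr61 added). At 1.5-fold, 3 members were lower in young injury, 3 higher in adult injury, 2 higher and 2 lower in adult sham, and 2 higher in adult injured cartilage. At 3-fold, 0 were lower in adult injury and 0 higher between the injured libraries.

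Over all genes, the counts higher and lower in young injury were 830 and 230 as deposited, 1817 and 768 with 0.1 FPKM, 343 and 79 with 5 FPKM, 1727 and 874 at 1.5-fold, and 368 and 49 at 3-fold. In adult injury they were 1255 and 266 as deposited, 2882 and 656, 434 and 128, 3262 and 720, and 442 and 84, with 725 and 489 after quantile normalization and 866 and 455 after median-of-ratios scaling. Between the sham libraries they were 484 and 1934, 1040 and 3840, 225 and 670, 1189 and 4560, and 183 and 505, with 916 and 959 after quantile normalization and 972 and 1009 after median-of-ratios scaling, so the excess of lower genes depended on the scaling. Between the injured libraries they were 328 and 561, 843 and 1503, 143 and 210, 1001 and 1779, and 96 and 188, with 463 and 423 after TPM rescaling and 408 and 463 after quantile normalization, so here too the balance depended on the scaling.

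No paired analysis was possible because each group held 1 pooled library. Ankrd1, Tead1 and Nov had low levels, at which few fragments limit the ratios.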

Other observations

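The target genes of SRF and its MRTF cofactors respond to actin and are often read beside YAP targets. A list of 21 genes, of which 19 were in the table, holds such targets and also SRF and cofactors themselves. After injury in young cartilage 0 of 19 rose and 2 fell by 2-fold or more, against 4.57% and 1.27% of all genes, Acta2, the smooth muscle actin (95.7 to 44.6 FPKM, log2 ratio -1.08), and Egr1, an immediate early gene (15.7 to 7.09 FPKM, -1.05). In adult cartilage, where 6.90% of all genes rose and 1.46% fell, 0 rose and 1 fell, Fhl2, a LIM-domain cofactor (31.9 to 10.6 FPKM, -1.50). After median-of-ratios scaling 4 fell there, Fhl2 (-1.77), Egr1 (-1.13), Fhl1 (-1.12) and Tagln (-1.10). Acta2 had a log2 ratio of 0.89 in adult cartilage (7.73 to 15.2 FPKM), opposite to the young ratio, and this difference was not tested. Fhl2 measured 6.64 FPKM in young sham and 10.7 in young injured cartilage, so the adult sham library alone was high. Between the sham libraries, where 2.66% of all genes were higher and 10.6% lower, Egr1 (log2 ratio 1.12) and Fhl2 (2.11) were higher and Acta2 (-3.47) was lower in adult mice, and after median-of-ratios scaling Actb (1.09) and Actg1 (1.13) were higher too. The summed level of 11 smooth muscle and pericyte markers, of which Acta2 is 1, was 183 and 105 FPKM in the young sham and injured libraries and 93.5 and 94.3 FPKM in the adult ones. Acta2 was the 1 of these 11 past 2-fold in young cartilage, and the median log2 ratio of the 11 was 0.10. Actb measured 602 and 1169 FPKM in the young and 981 and 938 FPKM in the adult pair, with a log2 ratio of 0.96 for injury in young and -0.06 in adult cartilage as deposited, and -0.34 in adult cartilage after median-of-ratios scaling.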
